A study of Mus musculus with 8 samples.

Results

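The comparison set fetal liver pro-B cells that carried a let-7b retrovirus beside fetal liver pro-B cells that carried its empty vector, and used 4 of the 8 arrays of the series, 2 for each group. All cells came from BALB/c Rag1 null mice, which cannot rearrange their antigen receptor genes, so B lymphoid cells stay at the pro-B stage. For each sort, livers of embryos at gestation day 16 (on average 8 embryos of 1 mother) were pooled, and the sorted pro-B cells were cultured with IL-7 over OP9 stroma in 24 wells. The next day 12 wells received let-7b virus and 12 received the empty MSCV vector, and GFP-positive cells were sorted 4 days after transduction. From each sample 100 ng of total RNA was amplified, labelled with Cy3 and hybridised to an Agilent mouse array. The 2 samples of a group were separate sorts of pooled embryos, not single animals, and the labels do not state whether samples with the same number came from 1 pool. All of them had been cultured on a stromal cell line, from which RNA can enter a sort. Each slide held 1 array of each group, so differences were taken within a slide, replicate 1 on slide 1 and replicate 2 on slide 2. On both slides the empty-vector array and the let-7b array had the same position, so position and group cannot be told apart.

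The let-7 microRNAs repress messenger RNAs that pair with their seed, and they are scarce in fetal blood progenitors because the RNA-binding protein Lin28b blocks the maturation of their precursors. Lin28b is itself a let-7 target, so each can hold the other down. In lymphoid progenitors the Lin28b and let-7 switch is known for separating fetal from adult output, and the title of the series names the transcription factor Arid3a as a mediator. Supplying let-7b to fetal pro-B cells asks which of their transcripts differ when the microRNA is added.

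The delivered microRNA and its relatives share 1 seed. Mature sequences are from RefSeq on build GRCm38.p6, with the seed (bases 2 to 8 from the 5′ end) in capitals; let-7b-5p lies at chr15:85707325-85707346 on the plus strand. They are shown because every member with this seed can pair with the same sites.
let-7b-5p: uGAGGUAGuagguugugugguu
let-7a-5p: uGAGGUAGuagguuguauaguu
let-7c-5p: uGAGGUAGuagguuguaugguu
let-7g-5p: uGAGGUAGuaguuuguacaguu
miR-98-5p: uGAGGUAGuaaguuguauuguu
No probe of the array was assigned to a let-7 precursor, so the level of the transduced microRNA was not measured here.

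An array gave signals for 43020 spots that were not controls. On slide 1, 67.9% of these spots in the empty-vector array and 68.6% in the let-7b array were well above background, against 56.5% and 57.0% on slide 2, so slide 2 measured dim transcripts less well. The 75th percentile of the signal was 485 and 271 intensity units on the empty-vector arrays 1 and 2, and 488 and 467 on the let-7b arrays. Every level below is the log2 signal of a probe minus that percentile of its array, and every difference is let-7b minus empty vector on the log2 scale. Arrays of 1 slide correlated at 0.992 and 0.981 across probes and arrays of 1 group at 0.973 (empty vector) and 0.981 (let-7b). Empty-vector array 2 stood apart from the others in signal.

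The sorted cells of both groups carried the defining transcripts of pro-B cells. Of 29 pro-B markers on the array all 29 were measured, and their summed level was 10.50 and 10.86 with empty vector and 10.74 and 10.76 with let-7b. Pax5, the commitment factor, differed by 0.05 ± 0.23 (SE) and Vpreb1, a chain of the surrogate light chain, by 0.21 ± 0.20. The Rag1 probe read 3.69 and 3.07 with empty vector and 3.53 and 3.09 with let-7b; whether it lies in the deleted part of the gene is not given, so it checks nothing about the genotype.

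A fit across 26039 probes, with the slide as a block, called 0 probes higher (0.0%) and 0 lower (0.0%) at an adjusted p under 0.05 (limma with Benjamini-Hochberg adjustment; smallest adjusted p 0.507). With 2 arrays against 2 the block leaves 1 residual degree of freedom, and an exact permutation test of 1 gene, exchanging arrays within slides, cannot go below p = 0.5 (two-sided). At an unadjusted p under 0.05 the fit had 888 probes higher (3.41%) and 890 lower (3.42%); after normexp background correction the split was 606 higher against 1307 lower. The listed alternative in which limma fits the variance against the level and resists outliers, with the same block, called 92 probes higher (0.353%) and 91 lower (0.349%). Without the slide as a block that alternative called 0 higher and 1 lower. In what follows "called with the variance trend" refers to that alternative with its block, and no gene named below passed the first fit. Values given without 1 array come from fits without the slide block, so they also compare arrays across slides.

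By the brightest probe of each of 21104 genes, 4936 genes were higher on both slides (23.4%) and 7519 were lower on both (35.6%). Both let-7b arrays lay above both empty-vector arrays for 2541 genes (12.0%) and below them for 3887 (18.4%). The differences spread more widely on slide 2 (SD 0.70 over genes) than on slide 1 (SD 0.42), and their medians were -0.11 and -0.02. Across genes, which are not independent replicates, the differences on the slides had a Pearson correlation of 0.23, and of 0.31 over the 16944 genes well above background on all 4 arrays. Among those 16944 genes, 93 were higher and 59 lower with let-7b by at least 1 log2 unit on both slides. By at least 2 log2 units, 6 were higher and 7 lower.

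**Figure D1:**
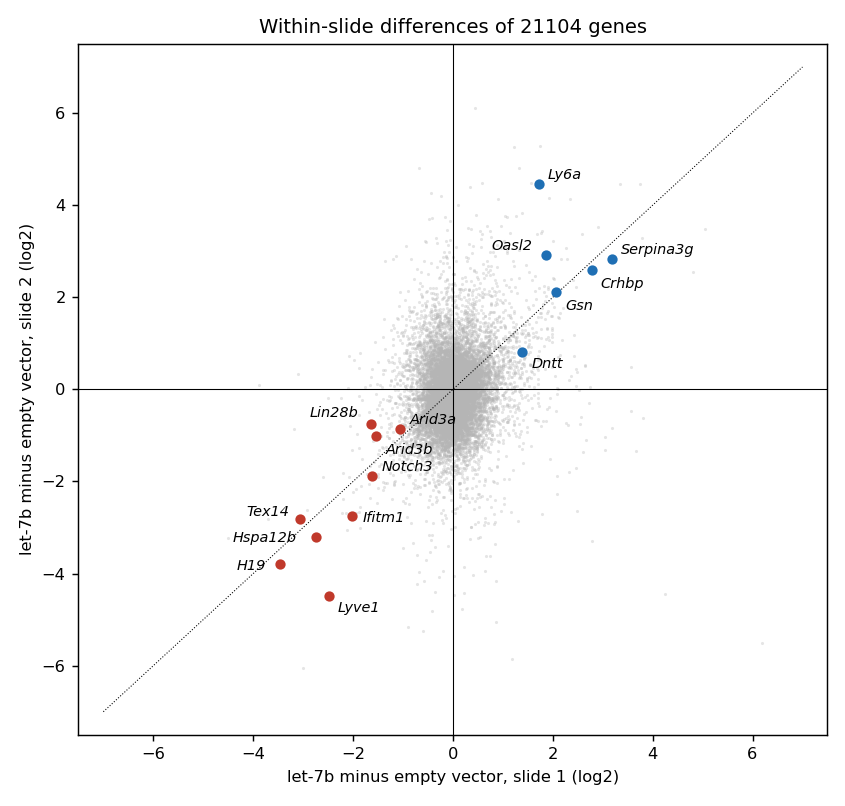
Difference between let-7b and empty vector (log2) on slide 1 (x axis) and slide 2 (y axis) for 21104 genes, with the dotted line marking equal values; named genes that were higher are blue and lower are red. H19 lies at -3.47 and -3.80, Crhbp at 2.78 and 2.59, and the cloud is wider along slide 2.

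Arid3a and its paralog Arid3b, AT-rich DNA-binding factors of which Arid3a is tied to fetal-type B lymphopoiesis, were lower with let-7b. Arid3a (chr10:79417377-79417436, plus strand, build mm9 as for all probe positions) read 3.66 and 3.42 with empty vector and 2.61 and 2.55 with let-7b. The groups did not overlap, and the difference was -0.96 ± 0.18 (SE), 1.95-fold, with an adjusted p of 0.0181 when called with the variance trend in limma. Its second probe (chr10:79417698-79417757) differed by -1.19 ± 0.19. Arid3b (chr9:57638549-57638608, minus strand) read 2.83 and 2.97 against 1.30 and 1.97, a difference of -1.27 ± 0.22 or 2.41-fold, and its dimmer probes differed by -0.98 and -0.33. All probes of both paralogs were lower on both slides. Whether a probe lies in a coding exon or a UTR was not assigned here.

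Lin28b, the let-7 inhibitor, was lower too but less evenly. Its brighter probe (chr10:45096468-45096527, minus strand) read 1.47 and 0.66 with empty vector and -0.18 and -0.10 with let-7b, so the groups did not overlap and the slides gave -1.64 and -0.76. Its dim probe gave -0.86 and -0.07, and neither probe was called with the variance trend. Without empty-vector array 1 the difference of the brighter probe was -0.80. Lin28a, the paralog, had levels of -0.70 and -0.52 against -0.48 and -1.27, which overlapped.

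Among the Igf2bp proteins, oncofetal mRNA-binding proteins that stabilise fetal growth transcripts, Igf2bp1 had the clearest difference. Igf2bp1 read -0.42 and -0.28 with empty vector and -1.21 and -1.18 with let-7b, 1.80-fold lower (-0.85 ± 0.18), without a call (adjusted p 0.115 with the variance trend, limma). Igf2bp3 differed by -0.32 and -0.11 on the slides with overlapping groups. Igf2bp2 differed by -0.44 and -0.50, was well above background on 1 array of each group, and its groups overlapped. Hmga2, the chromatin protein that is a classic let-7 target, had slide differences of -0.28 and 0.22 in its brighter probe, which was well above background on all 4 arrays. Its second probe, well above background on 1 array of each group, gave 0.08 and 1.36.

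**Figure D2:**
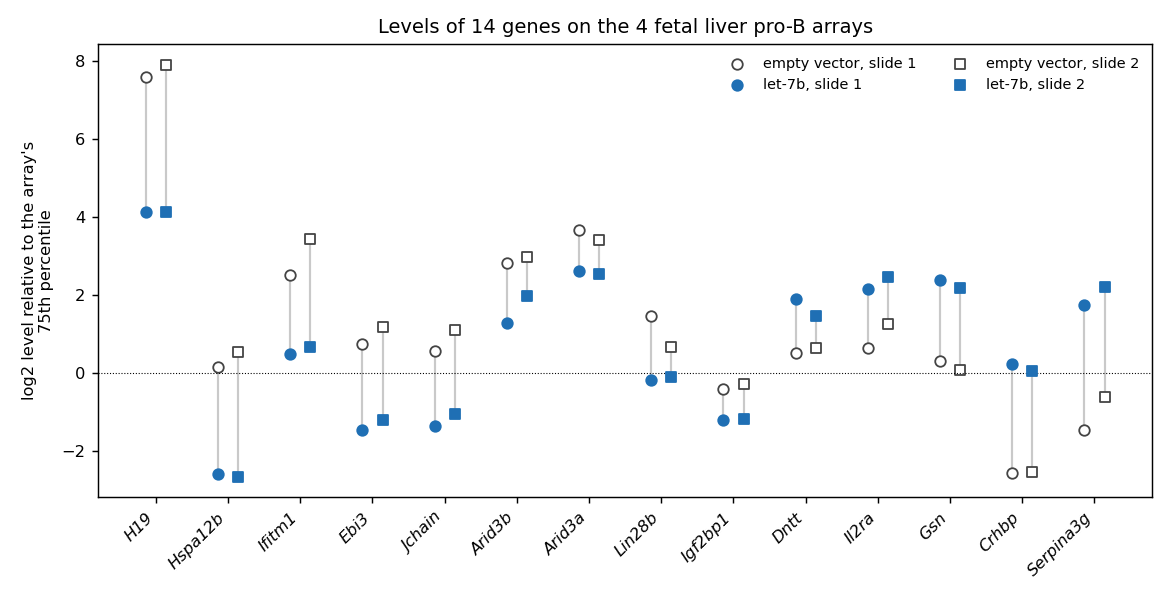
Log2 level relative to the array's 75th percentile (y axis) of 14 genes on the 4 arrays; open symbols are empty vector, filled symbols let-7b, circles slide 1 and squares slide 2, and a grey line joins the arrays of a slide. For each gene plotted both let-7b arrays lie on 1 side of both empty-vector arrays; H19 is at 7.60 and 7.92 with empty vector and at 4.13 and 4.12 with let-7b.

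A list of 58 known or predicted let-7 targets had 55 measured members, of which 34 were lower and 21 higher by the mean of the slides, beside 57.7% lower and 42.3% higher over all genes. Its median was -0.15, with -0.16 on each slide, beside -0.06 over all genes. On both slides 27 of the 55 were lower and 13 higher, and 20 lay below without overlap against 6 above; over all genes these shares were 35.6%, 23.4%, 18.4% and 12.0%. In the first fit 0 of the 55 passed; with the variance trend 6 were called lower and 0 higher, against 0.379% of all genes called lower. The 6 were Arid3a, Arid3b, Plagl2, Nme4, Tarbp2 and Pbx2. The list was written with earlier results of these data known, so these counts describe it and are no test of let-7 targeting.

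Plagl2, a zinc-finger factor, read 1.13 and 0.92 with empty vector and 0.27 and 0.04 with let-7b, 1.83-fold lower, and its other probes differed by -0.97 and -0.52. Nme4, the mitochondrial nucleoside diphosphate kinase, read 2.16 and 2.75 against 1.42 and 1.89, a difference of -0.80 ± 0.18 that was -0.50 without empty-vector array 2. Pbx2, a homeodomain partner of Hox proteins, read 1.87 and 2.12 against 1.16 and 1.10. All of these groups were apart. Members of the list also lay on the other side: Mycn, an oncogenic paralog of Myc, was 0.82 and 0.58 higher on the slides.

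**Figure D3:**
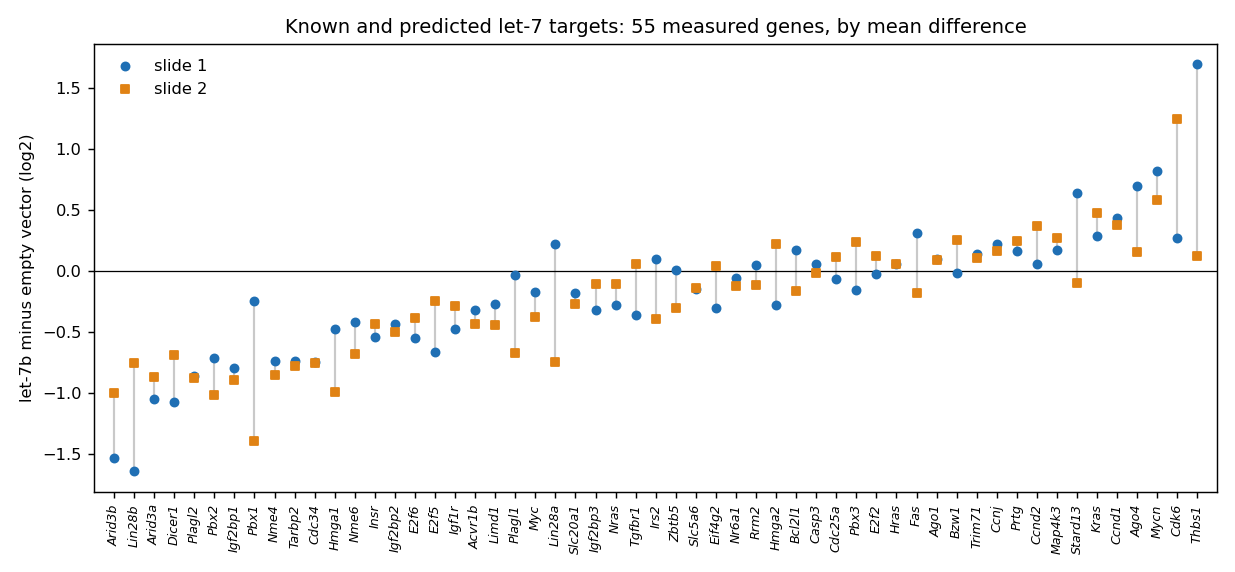
Within-slide difference (log2, y axis) of the 55 measured members of the let-7 target list, ordered by the mean of the slides; circles are slide 1, squares slide 2. Arid3b, Lin28b and Arid3a stand at the low end, and many of the middle members lie close to 0 on both slides.

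Transcripts of 19 microRNA pathway genes were measured, of which 10 were higher and 9 lower, and Tarbp2 was the 1 member called with the variance trend (lower calls were 0.379% of all genes). Dicer1, the RNase that cuts precursors and itself a let-7 target, read 1.11 and 0.76 with empty vector and 0.04 and 0.08 with let-7b, 1.84-fold lower. Tarbp2, a Dicer partner, read 2.87 and 3.25 against 2.13 and 2.48, -0.76 ± 0.17 (adjusted p 0.0443 with the variance trend, limma). Ago2, the slicing Argonaute, was lower in all 4 of its probes (-0.24 to -0.63). Dgcr8, the RNA-binding partner of Drosha in nuclear processing, was higher, from -0.36 and -0.56 to 0.39 and 0.69. Adar, the interferon-responsive RNA editing enzyme, was 0.36 and 1.03 higher on the slides, and 0.30 without empty-vector array 2.

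The probes themselves allow a limited look at let-7 pairing, since the complement of the seed, CTACCTC, occurs in the 60 bases of some probes. It stood in 125 of the tested probes (0.480%), of which 84 were lower and 41 higher. Their median difference was -0.15 (-0.12 and -0.27 on the slides) beside -0.05 over all probes, and 43.2% of them were lower on both slides against 35.5% of all. The longer match CTACCTCA, contained in the first, was in 37 probes (0.142%) with a median of -0.12. On the opposite strand GAGGTAG was in 45 probes (0.173%), with a median of -0.09 and 28.9% lower on both slides. A probe covers a small part of a transcript, so these matches describe the printed letters and not the sites of the messenger RNA.

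Windows around the match are shown for 3 of these probes, all lower with let-7b and chosen after their values were seen. The match is in capitals, with at most 8 bases on either side within the probe. The probes lie at chr5:124511875-124511934 (minus strand), chr4:106417185-106417244 (minus) and chr17:34733355-34733414 (plus).
Abcb9: aaagtgtaCTACCTC
Acot11: gttgCTACCTCattctctt
Pbx2: tcggatatCTACCTCggagggag
Abcb9, a lysosomal peptide transporter, read -1.64 and -0.96 with empty vector and -2.84 and -2.81 with let-7b, 2.88-fold lower. Acot11, an acyl-CoA thioesterase, read -1.65 and -1.99 against -2.53 and -2.94. Both groups were apart for each gene, and Abcb9 was called with the variance trend (adjusted p 0.0448, limma). Zbtb37, whose probe also holds the match, went the other way. It read -6.03 and -4.77 with empty vector and -4.83 and -3.98 with let-7b. Its groups overlapped, and it was not well above background on either empty-vector array. 

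Ranked by the smaller of its slide differences, the lowest gene was H19, the maternally expressed imprinted long non-coding RNA that is abundant in fetal liver and binds let-7. The probe at chr7:149761492-149761551 (minus strand) read 7.60 and 7.92 with empty vector and 4.13 and 4.12 with let-7b. Its difference was -3.63 ± 0.19, 12.4-fold, with -3.47 and -3.80 on the slides. The adjusted p was 0.507 in the first fit, 0.000121 with the variance trend and 0.0352 in the authors' deposited table, all by limma. A second H19 probe (chr7:149762417-149762476) lies within 1 kb of the first and read -3.51 and -3.71 against -3.62 and -4.47, with slide differences of -0.11 and -0.76, so the probes disagree in size. Both sequences, from the array files, are printed because 1 of them carries the result.
H19 bright probe: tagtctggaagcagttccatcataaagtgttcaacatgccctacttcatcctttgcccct
H19 dim probe: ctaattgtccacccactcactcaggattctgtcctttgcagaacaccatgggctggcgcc
Igf2, the fetal growth factor next to H19, was dim: it read -5.08 and -3.79 with empty vector and was not well above background on either let-7b array (at least 1.57-fold lower). Grb10, an imprinted growth inhibitor, read 0.30 and 0.07 against -0.24 and -0.91. Of 17 measured imprinted genes 7 were higher and 10 lower, and apart from H19 none was called with the variance trend (lower calls were 0.379% of all genes).

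Of the 29 pro-B markers 18 were higher and 11 lower, with 2 called higher with the variance trend (0.398% of all genes). Without empty-vector array 1, 13 were higher and 16 lower. Dntt, the terminal transferase that adds N nucleotides in adult but little in fetal B cells, read 0.51 and 0.64 with empty vector and 1.90 and 1.46 with let-7b. It was 2.15-fold higher (1.11 ± 0.23), and was called with the variance trend (adjusted p 0.0358, limma). Spn, the CD43 sialoglycoprotein of pro-B cells, was 0.73 higher on each slide, and its second probe 0.76 and 0.42. Ly6d, a marker of B-committed lymphoid progenitors, was 0.88 and 1.85 higher. Myb, a factor needed for pro-B cells, read 3.74 and 3.83 against 4.32 and 4.26, and Sox4, another progenitor factor, read 3.78 and 3.71 against 4.37 and 4.15.

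Genes of later B cell stages had a median of -0.29 over 23 measured members, with -0.27 and -0.25 on the slides, and 16 were lower against 7 higher (57.7% and 42.3% of all genes). Without empty-vector array 1 the median was -0.17. With the variance trend 2 members were called higher and 3 lower (0.398% and 0.379% of all genes). Bank1, a B cell scaffold protein, read -0.34 and -0.47 with empty vector and -2.07 and -2.32 with let-7b, 3.44-fold lower, and its second probe differed by -1.75. Cxcr5, the follicle homing receptor, read 3.41 and 4.02 against 2.43 and 2.58, 2.32-fold lower. Cd2, an adhesion receptor, differed by -0.77 and -1.04 on the slides, though its let-7b level on slide 2 (4.46) was close to its empty-vector level on slide 1 (4.45), and the difference was -0.38 without empty-vector array 2. Bank1, Cxcr5 and Cd2 were called lower with the variance trend.

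A member of the later list with the opposite sign was Il2ra. Il2ra, the alpha chain of the IL-2 receptor (CD25), read 0.64 and 1.25 against 2.15 and 2.47, 2.58-fold higher. It was called higher with the variance trend (adjusted p 0.00704, limma). Jchain, the joining chain of secreted immunoglobulin, read 0.57 and 1.11 against -1.37 and -1.06 and was 4.15-fold lower. Ebi3, a subunit of interleukin 27 and 35, read 0.74 and 1.18 against -1.46 and -1.21, 4.91-fold lower.

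Among probes of the unrearranged immunoglobulin heavy-chain locus on chromosome 12, a set chosen after its values were seen, many on the variable side were higher. Without Rag1 the variable segments are read as germline transcripts, before any joining. On the variable side of the Adam6b probe, 41 of 54 probes were higher, with a median of 1.01 (1.14 and 0.75 on the slides), and 33 were higher on both slides. Of these 54, 28 were higher without overlap and 0 lower, beside 12.0% and 18.4% of all genes, and 14 were called higher with the variance trend, beside 0.353% of all probes. On the constant side 5 of 11 probes were higher, with a median of -0.08. All 9 probes that the file labels as IGHV1 segments were higher, with a median of 1.80. The 5 labelled with other IGHV families had a median of -0.26, 1 of them higher. Those labelled IGHV10, at 988 and 1032 kb from the Adam6b probe, differed by -0.26 and -0.30. Their slides disagreed in sign, with 0.30 and -0.82 for the first and 0.14 and -0.75 for the second. The part of distance was not tested. Ighv1-9 (chr12:115821969-115822027, minus strand) read -5.06 and -5.29 with empty vector and -2.67 and -2.92 with let-7b. The segments are related: 33 of the 54 probes share a run of 20 or more bases with another, so a signal cannot be credited to 1 segment. Of the 54, 38 were well above background on all 4 arrays, but the median was 0.12 after normexp correction and 0.46 in the authors' deposited table.

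**Figure D4:**
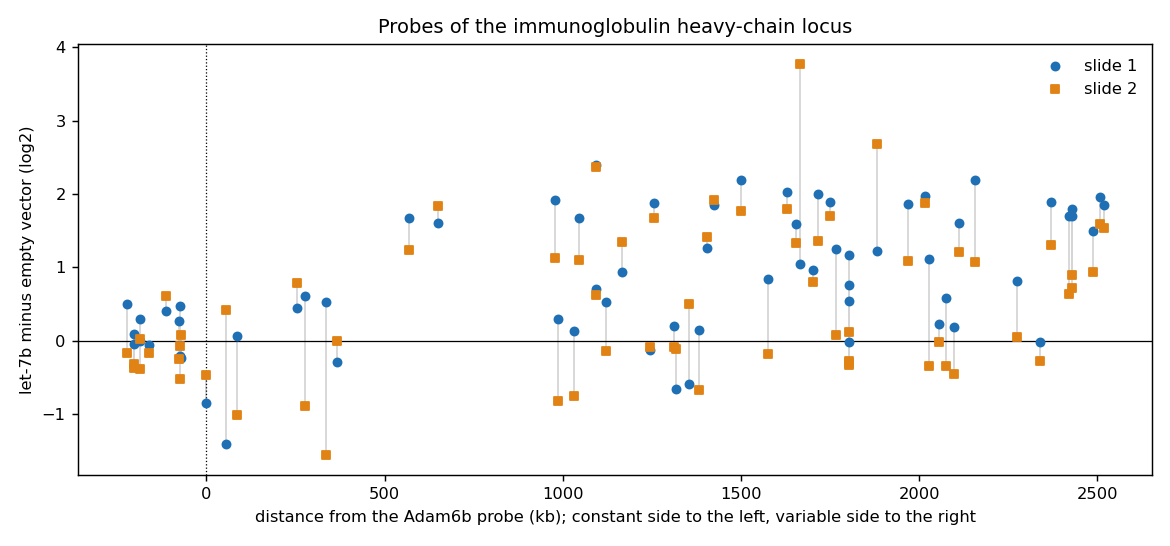
Difference between let-7b and empty vector (log2, y axis) of heavy-chain locus probes against distance from the Adam6b probe in kb (x axis); constant regions are left of 0 and variable segments right of it, circles are slide 1 and squares slide 2. The constant-side probes lie on both sides of 0 (median -0.08), and beyond 500 kb 40 of 49 variable-side probes are higher.

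Among receptor segments of T cells the gamma-chain variable segment Trgv2 was below the background limit on both empty-vector arrays and read -4.25 and -3.92 with let-7b, at least 1.92-fold higher. Such a bound divides the bright group's mean by the lowest signal well above background on the dim arrays. Where the dim probe's own signal is higher, that signal is used instead. The bound holds only for the processing used here. The alpha and beta segments had 30 measured probes, 26 lower and 4 higher, with medians of -0.04 and -0.55 on slides 1 and 2. T cell markers had 18 of 22 measured, 11 lower and 7 higher, and their summed level was 3.98 and 4.61 with empty vector and 3.88 with each let-7b array. Cd3d, Cd3g, Trat1 and Themis were dim. Notch3, a Notch receptor, read -1.02 and -0.85 against -2.64 and -2.74, 3.37-fold lower.

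Interferon response genes were higher as a group: 36 of 37 measured members were higher by the mean, 35 on both slides, and 32 without overlap (12.0% of all genes). Their median was 1.15, but it was 0.54 on slide 1 and 1.84 on slide 2. Empty-vector array 2 stood low: the summed level of the list was 9.04 and 8.28 with empty vector and 9.64 and 9.60 with let-7b, and the median was 0.44 without that array and 1.91 without empty-vector array 1. Oasl2, an oligoadenylate synthetase-like protein, read -3.74 and -5.38 against -1.88 and -2.46, and was the member called with the variance trend (1 of 37, beside 0.398% of all genes). It was well above background on 1 of the 2 empty-vector arrays. Igtp, an immunity-related GTPase, read 3.07 and 2.13 against 3.81 on each let-7b array. Zbp1, a nucleic acid sensor, read 0.70 and -0.21 against 1.69 and 1.85, and Ifi27l2a, an interferon-inducible mitochondrial protein, 8.16 and 7.44 against 8.86 and 8.82.

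MHC class I genes were higher too, and empty-vector array 2 was again the lowest. All 17 measured members were higher, 16 on both slides, with a median of 0.84 (0.34 and 1.36). That median was 0.34 without empty-vector array 2 and 1.34 without empty-vector array 1. Of the 17, 0 were called in the first fit and 0 with the variance trend. B2m, the invariant light chain, read 6.69 and 5.89 with empty vector and 7.23 and 7.25 with let-7b. H2-K1, a classical heavy chain, read 6.40 and 5.57 against 6.94 and 6.95. Heavy-chain genes of this family are alike in sequence, so their probes may share signal. Psmb9, an immunoproteasome subunit, was 0.63 and 1.38 higher and H2-T22 was 0.71 and 1.44 higher. In MHC class II the even member was H2-Eb1, a beta chain, which read -0.25 and 0.25 against 1.00 and 1.39 and was called with the variance trend; 8 of 9 measured class II genes were higher by the mean. The class II median was 0.37, but 0.026 after normexp correction and 0.029 without empty-vector array 1.

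Ifitm1, an interferon-inducible membrane protein, was lower. Ifitm1 read 2.51 and 3.43 with empty vector and 0.48 and 0.68 with let-7b, 5.24-fold lower. The pseudogene Gm7676 has a probe that shares 54 of 60 bases in 1 run with that of Ifitm1 and differed by -1.94 and -2.69, so its signal cannot be told from that of Ifitm1.

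Among stem and progenitor regulators Lmo2, a LIM adaptor of blood stem cells, read -0.52 and -0.91 with empty vector and 0.63 and 0.26 with let-7b, 2.23-fold higher with a call by the variance trend. Kit, the stem cell factor receptor, read -0.66 and -0.78 against 0.34 and -0.15. Ly6a, the interferon-responsive Sca-1 antigen, read -0.05 and -2.81 against 1.67 and 1.65, and its difference of 3.09 was 1.71 without empty-vector array 2. The list as a whole was even, with 9 of 19 measured members higher. Pim2, a kinase induced by STAT5, read -0.26 and 0.13 against -1.39 and -1.05, while 14 of 20 IL-7 and STAT5 pathway genes were lower with a median of -0.11. Without empty-vector array 2, 10 were lower and 10 higher, and without empty-vector array 1 the median was -0.22.

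Markers of stromal cells were higher with let-7b, mostly on slide 1. Of 26 stromal markers 24 were measured, 18 higher and 6 lower, with medians of 1.05 and 0.35 on the slides, and their summed level was 6.08 and 6.07 with empty vector and 6.59 and 6.26 with let-7b. Col1a1, the main collagen chain of mesenchyme, read -1.61 and -3.06 against -0.37 and -1.70, so its groups overlapped while each slide gave over 1 log2 unit. Timp1, an inhibitor of matrix proteases, read -3.38 and -2.63 against -1.67 and -1.50. Postn and Lum were too dim to be measured. The list's median of 0.67 was 0.07 after normexp correction, 0.10 without let-7b array 1 and 1.34 without let-7b array 2. In bulk RNA, more stromal cells and more stromal RNA per cell cannot be told apart, and the part of OP9 RNA in the other differences was not tested.

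Markers of other cells were mixed, and not all were low. Hepatocyte markers had 7 of 18 measured, with Alb, Afp and Apoa1 dim, and summed levels of 1.86 and 2.43 with empty vector against 1.78 and 1.64 with let-7b. Erythroid markers had 9 of 18 measured, with Klf1 and Alas2 dim, summed levels of 2.85 and 2.63 against 3.35 and 2.96, and Car2, carbonic anhydrase 2, 0.94 higher on each slide. Myeloid markers had 17 of 23 measured, with Mpo and Lyz2 dim, and summed levels of 7.62 and 7.12 against 7.46 and 7.37. These sums lie above those of the stromal list, so the dim members do not stand for the list. The myeloid median was -0.89 without let-7b array 1 and 0.54 without let-7b array 2. Dendritic markers had 10 of 14 measured, with sums of 7.96 and 7.84 against 8.14 and 7.91. Endothelial markers had 6 of 12 measured, with sums of 4.7 and 5.3 against 4.6 and 4.4. Innate lymphoid markers had 9 of 18 measured, with sums of 2.04 and 1.89 against 2.26 and 1.89.

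Glycolysis genes were lower: all 20 measured members had a mean difference below 0, with medians of -0.18 and -0.50 on slides 1 and 2, and 17 were lower on both. Slc2a3, a glucose transporter, read 1.32 and 1.49 with empty vector and 0.48 and 0.39 with let-7b, 1.96-fold lower. It was the member called with the variance trend (adjusted p 0.0301, limma), beside 0.379% of all genes called lower. Hk2, the hexokinase of growing cells, differed by -0.43 and -0.79 on the slides. Pgk1, phosphoglycerate kinase, differed by -0.29 and -0.73, and Aldoc, an aldolase, by -0.23 and -1.08. After quantile normalization 16 of the 20 were lower, and 17 in the authors' deposited table. Ribosomal protein genes had 77 of 81 lower with a median of -0.22, but this direction flipped with the scaling, since the median was 0.02 after quantile normalization, with 31 lower. Without empty-vector array 2, 45 of the 81 were lower.

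Cell cycle lists leaned upward by small amounts. Of 20 measured cyclins and regulators of G1 18 were higher, with a median of 0.22. Among inhibitors of cyclin-dependent kinases, Cdkn2a, which encodes p16 and p19, read -0.99 and -1.03 with empty vector and -0.17 and -0.46 with let-7b. Cdkn1a, which encodes p21, read -0.45 and -0.53 against 0.55 and 0.01. Cdkn2c, which encodes p18, was 0.71 and 0.40 higher. Of 24 measured mitosis genes 19 were higher with a median of 0.15, and 0 members of either list were called in the first fit or with the variance trend.

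**Figure D5:**
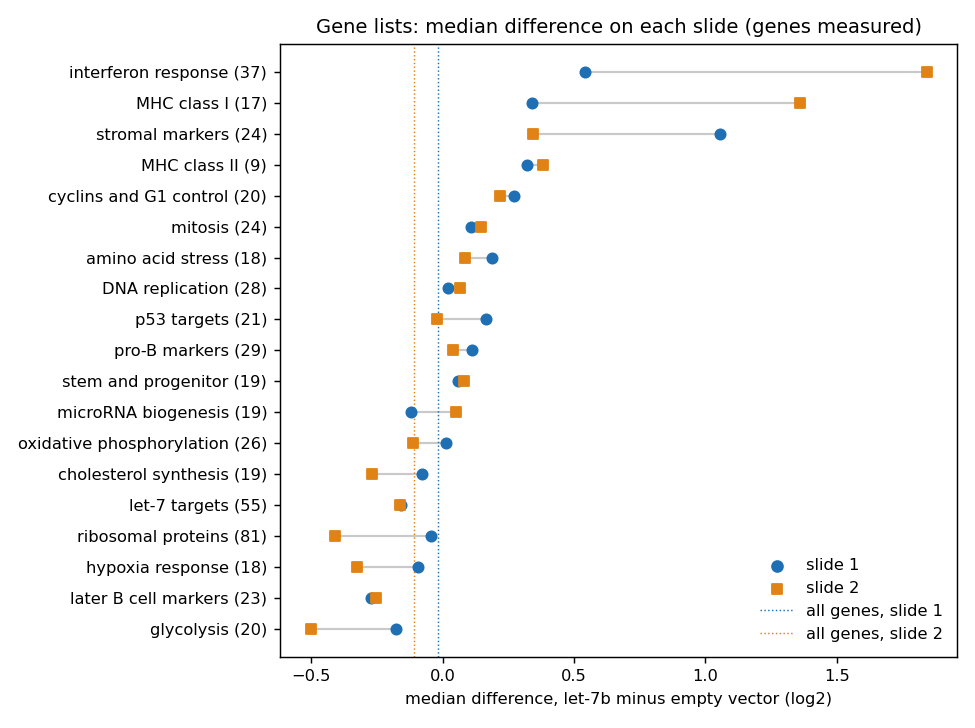
Median difference between let-7b and empty vector (log2, x axis) of 19 gene lists on slide 1 (circles) and slide 2 (squares), with the number of measured genes in brackets; dotted lines are the medians over all genes. Interferon and MHC class I lists reach 1.84 and 1.36 on slide 2 and 0.54 and 0.34 on slide 1, and glycolysis lies lowest on slide 2 at -0.50.

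Among the 15 genes that ranked highest by the smaller of the slide differences, several were bright enough to compare on every array. Serpina3g, a serine protease inhibitor of lymphoid cells, read -1.45 and -0.62 with empty vector and 1.74 and 2.21 with let-7b, 8.07-fold higher. Its paralog Serpina3f was 2.01 and 2.42 higher; the longest run their probes share is 6 bases. Crhbp, which binds corticotropin-releasing hormone, read -2.56 and -2.54 against 0.22 and 0.05, 6.44-fold higher. Gsn, the actin-severing protein gelsolin, read 0.31 and 0.08 against 2.38 and 2.19, 4.27-fold higher. The ranking took only genes whose groups were apart. All 4 genes were called with the variance trend, at adjusted p from 0.000367 (Serpina3g) to 0.0145 (Serpina3f) by limma.

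Others at the top were measured above background only with let-7b. Bpifb5 was at least 5.0-fold higher, Mroh2b at least 3.49-fold, Col10a1, a cartilage collagen, at least 2.70-fold and Defb13, a defensin, at least 1.69-fold. Ms4a4b, a lymphocyte membrane protein, was at least 1.41-fold higher. Such dim probes shrank under other corrections: the difference of Bpifb5 was 3.90 here, 0.72 after normexp correction and 1.29 in the authors' deposited table. These last values lie below its bound, so the bounds hold only for the processing used here.

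At the low end Hspa12b, an atypical Hsp70 protein of endothelium, read 0.15 and 0.53 with empty vector and -2.60 and -2.67 with let-7b, 7.86-fold lower. Tex14, a protein of germ cell bridges, read -1.21 and -0.38 against -4.27 and -3.20, 7.67-fold lower. Rap1gap, which turns off the GTPase Rap1, read -1.64 and -0.60 against -3.75 and -3.65, and Chrna9, an acetylcholine receptor subunit, read -1.14 and -0.94 against -3.28 and -3.61. All 4 were called with the variance trend, and here too the ranking took only genes whose groups were apart. Sprr2b (at least 2.95-fold lower), Cpa6 (1.91-fold), Colgalt2 (2.12-fold), Grifin (1.37-fold) and Lyve1 (2.50-fold) were not well above background with let-7b. Each value is a lower bound for the processing used here only.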

How the data were processed

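Per the file headers, the authors deposited scanner intensity values, background-subtracted by Agilent Feature Extraction 9.5.3.1. The authors also deposited a table of log2 values whose normalization and centring are not given in the sources used here; all 4 column medians were 6.16 and slopes against the scanner signal were 0.950 to 0.981. Levels are log2 of that signal, centred on the 75th percentile of each array. Copies of a probe were averaged, 14 of 39429 probes were left out as outliers, and probes well above background on at least 2 of 4 arrays were tested (26039; 13376 were dim). limma 3.58.1 (R 4.3.3) fitted lmFit and eBayes with the slide as a block; Python 3.11.15, pandas 2.3.3 and matplotlib 3.10.9 made the counts and plots. Adjusted p values are Benjamini-Hochberg over all probes. The fit was tested on simulated data. A gene is its kept probe of highest mean; 15916 of 21104 genes carry a RefSeq symbol (GRCm38.p6, names and microRNA sequences only) and 5188 the file's name. Same-slide arrays deviated together (r 0.58), and slide equals replicate number.

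Named genes are a fixed set (Arid3a, Arid3b, Lin28a, Lin28b, Igf2bp1 to Igf2bp3, Hmga2, Dntt, H19, Hspa12b, Crhbp, Ighv1-9, Trgv2), the 15 highest and 15 lowest by the smaller slide difference with groups apart, and up to 5 members per list by smallest p. Defining markers are also named, and Pbx2, Mycn, Abcb9, Acot11, Zbtb37 and the heavy-chain probes were picked with their values in view. The members and lists were chosen with earlier results of these data known. With the slide as a block, p-values rest on how far the let-7b difference varied between slides, moderated over all probes. The spread between sorts of a group enters only in fits without the block. The number of arrays limits precision. For normexp, the 724 to 923 spots per array with an outlier background took the array's median background. The settings compared were background, normalization, the authors' table, filters, block, all 8 arrays, variance trend, 1 probe per gene and each array left out. A few genes are not reported here.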

Additional observations from a re-analysis of the deposited data

How the results depend on the processing

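Normexp background correction called 176 probes higher and 124 lower, the variance trend 92 and 91, and all 8 arrays without a block 5 and 2; the authors' deposited table called 0 higher and 1 lower. Chosen after seeing the data, the variance trend over probes well above background on all 4 arrays called 125 higher and 137 lower, and the variance trend with no replicate block called 0 and 1. With no replicate block and no trend the fit called 0, and 436 probes were higher and 396 lower at an unadjusted p under 0.05, against 888 and 890 with the block (494 and 528 with the trend and no block). Lower probes at that p were 1520 with all 8 arrays, 1505 with the trend and 1478 with the trend and the stricter filter. Leaving out 1 array called 0 probes each time and gave 234 to 1039 higher and 133 to 873 lower probes at that p. The cause was not tested.

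The let-7 target median was -0.19 after normexp, where the median of all probes was -0.14, and -0.13 after quantile normalization, where it was -0.0055 (-0.15 and -0.05 as first given). Relative to all probes this is -0.055, -0.12 and -0.095. The median was -0.24 to -0.10 with 1 array left out. Genes named that reversed were Hmga2 in the authors' table (0.030) and, with 1 array left out, Hmga2 (-0.23 to 0.17), Lin28a (-0.66 to 0.13), Igf2bp2 (-1.05 to 0.10) and Igf2bp3 (-0.49 to 0.064). The fits with 1 array left out had no slide block, so they partly compare arrays across slides. Within slides, Igf2bp2 and Igf2bp3 were lower on both.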
